A study of Mus musculus with 2 samples.

Results

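Trimethylation of lysine 4 of histone H3 (H3K4me3) was mapped by ChIP-seq, the sequencing of DNA pulled down with an antibody, in adult neural progenitor cells of the mouse, and the genes described here are long protein-coding genes with a separate H3K4me3 peak at each of their ends. They were chosen from the authors' peak list: autosomal protein-coding RefSeq genes longer than 10 kb in which different peaks overlapped the windows of 1 kb either side of the gene's lower and upper end. Of 13322 autosomal coding genes of that length, 421 met the rule, which is 3.16% (95% interval 2.87 to 3.47), while 8918 genes, or 66.9%, had a peak at an end and 8496 had one at 1 end only. Six3, a forebrain homeobox gene of 12.6 kb, had both windows under 1 peak of 12.7 kb and was not a member. Since the peaks chose the genes, the tag counts, lengths and folds below describe the members and no test was made. Intervals are exact (Clopper-Pearson) for shares and from order statistics for medians, and they cover counting error over genes only.

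The 2 samples are 1 library of H3K4me3 chromatin, labelled "con", and 1 input library of chromatin without pull-down. Both came from cells grown in N2 medium with EGF and bFGF and no other treatment, and in the peak file's header the pulled-down library carries the name of EGF. Filtered tags numbered 18156769 for H3K4me3 and 17831241 for the input, per that header, and the authors' list held 19265 peaks. With 1 library of each kind there is no error between cultures, and no genotype, strain or age is given.

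In mammals H3K4me3 is laid down by SET1 and MLL methyltransferase complexes on nucleosomes just downstream of transcription start sites, above all at CpG-rich promoters, and it is read by factors such as TFIID. The end of a gene's transcription unit normally lacks it. A peak at the end opposite to the start can therefore lie at the start of a neighbour, at a further start of the gene itself or at a site with no annotated start.

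The annotated start, and with it the direction of the gene, was given for 351 of the 421 genes (83.4%). The peak within 1 kb of the gene's outer end on the start side is called the start peak. The peak at the opposite end is called the far-end peak. Below, a peak at the start of a gene means the start peak. Whether it covered the annotated start itself was not counted. At 228 of the 351 far-end peaks (65.0%, 95% interval 59.7 to 69.9) the annotated start of another coding gene lay within 1 kb of the peak. Counted from the far end of the gene instead, such a start lay within 1 kb in 111 of the 351 (31.6%). At the unmarked far end of 6674 genes with a start peak only, it did in 57 (0.854%). Neither an end nor a start of another gene lay within 1 kb of the far end in 40.7% of the 351 and 84.0% of the 6674. Sequences around both starts are shown for the 3 of these 228 with most far-end tags, as both their peaks lie at an annotated start. Each runs 5' to 3' on the strand of its gene, from 250 bases before the start to 50 after it (RefSeq, GRCm38.p6, which is mm10). The pairs are Ncapd2 (chr6:125191537-125191836, minus strand) with Gapdh (chr6:125165724-125166023, minus), Vac14 (chr8:110618317-110618616, plus) with Mtss2 (chr8:110721226-110721525, plus), and Nek8 (chr11:78176617-78176916, minus) with Traf4 (chr11:78165501-78165800, minus). Capitals mark matches, on either strand, to GGGCGG (the GC box), CCGGAAG (an ETS-type motif), an NRF1-type motif or TGACGTCA (the CRE), and a match is a description, not a binding site.
Ncapd2: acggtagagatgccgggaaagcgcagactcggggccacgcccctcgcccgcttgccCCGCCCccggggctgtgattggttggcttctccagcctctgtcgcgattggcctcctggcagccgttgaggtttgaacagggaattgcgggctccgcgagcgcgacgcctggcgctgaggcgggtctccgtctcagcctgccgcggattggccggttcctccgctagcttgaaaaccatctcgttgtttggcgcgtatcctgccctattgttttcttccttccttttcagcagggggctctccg
Gapdh: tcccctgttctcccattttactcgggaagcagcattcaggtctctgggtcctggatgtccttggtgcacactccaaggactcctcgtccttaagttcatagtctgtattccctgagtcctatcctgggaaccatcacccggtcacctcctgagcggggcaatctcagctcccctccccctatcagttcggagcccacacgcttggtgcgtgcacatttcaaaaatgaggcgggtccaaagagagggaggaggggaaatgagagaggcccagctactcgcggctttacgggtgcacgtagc
Vac14: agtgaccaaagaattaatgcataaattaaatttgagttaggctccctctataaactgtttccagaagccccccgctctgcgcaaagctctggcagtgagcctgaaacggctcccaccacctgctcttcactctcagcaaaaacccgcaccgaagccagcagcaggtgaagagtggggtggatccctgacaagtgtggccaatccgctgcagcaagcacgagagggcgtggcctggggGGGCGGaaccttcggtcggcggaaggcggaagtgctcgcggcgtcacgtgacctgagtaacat
Mtss2: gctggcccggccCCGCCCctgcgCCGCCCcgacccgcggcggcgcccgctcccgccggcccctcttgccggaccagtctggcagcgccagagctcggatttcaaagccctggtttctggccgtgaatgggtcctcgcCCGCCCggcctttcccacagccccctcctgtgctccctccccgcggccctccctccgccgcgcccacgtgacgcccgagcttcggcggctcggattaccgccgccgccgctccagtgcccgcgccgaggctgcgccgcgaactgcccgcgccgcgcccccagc
Nek8: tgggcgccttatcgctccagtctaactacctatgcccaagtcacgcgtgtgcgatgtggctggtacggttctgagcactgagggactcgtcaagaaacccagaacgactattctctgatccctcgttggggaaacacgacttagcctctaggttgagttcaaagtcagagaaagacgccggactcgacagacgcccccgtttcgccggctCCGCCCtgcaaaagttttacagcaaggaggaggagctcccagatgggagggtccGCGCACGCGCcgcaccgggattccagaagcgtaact
Traf4: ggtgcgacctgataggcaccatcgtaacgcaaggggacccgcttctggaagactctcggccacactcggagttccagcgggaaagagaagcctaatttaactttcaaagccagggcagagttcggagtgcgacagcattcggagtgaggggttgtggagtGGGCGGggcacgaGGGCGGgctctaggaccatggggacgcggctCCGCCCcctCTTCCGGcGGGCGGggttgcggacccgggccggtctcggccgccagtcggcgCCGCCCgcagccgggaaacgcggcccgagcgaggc

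In these 3 pairs the member and its neighbour were read from the same strand, one behind the other. The promoter of Traf4 held 5 GC boxes and 1 CCGGAAG, that of Nek8 held 1 GC box and 1 NRF1-type motif, and that of Mtss2 held 3 GC boxes, while the window of Gapdh held none of the 4 motifs. CpG dinucleotides numbered 44 in the window of Mtss2, 33 in that of Traf4, 29 in that of Ncapd2, 25 in that of Nek8, 17 in that of Vac14 and 12 in that of Gapdh.

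In each of the 3 pairs shown, the far-end peak held more tags than the start peak of the same gene. Ncapd2, a subunit of the condensin complex of mitotic chromosomes, had 549 tags over 3.17 kb at its start. Its far-end peak, where Gapdh, a glycolytic enzyme gene, starts, held 1084 tags over 5.91 kb. This peak also lay within 1 kb of an end of the coding gene Iffo1, whose direction was not given. Vac14, a scaffold of the lipid kinase complex that makes PI(3,5)P2, had 376 tags at its start and 921 at the far end, at Mtss2. Nek8, a kinase of primary cilia, had 708 tags at its start and 875 at the far end, at Traf4, an adaptor of receptor signalling.

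The next 3 genes of this kind showed the same order of the 2 peaks. Axl, a receptor tyrosine kinase gene, had 334 tags at its start and 844 at its far end, at Hnrnpul1, which encodes an RNA-binding protein. Kif22, a mitotic kinesin gene, had 347 and 704 tags, the latter at Maz, a zinc finger transcription factor gene. Xpot, which encodes the exportin of tRNAs, had 590 and 692 tags, the latter at Tbk1, a kinase of innate immune signalling. These 6 genes were named for their tags at the far end, so their ratios are at the upper side of the group.

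Over all 228 genes with a coding start at the far end, the far-end peak had a median of 308 tags (quartiles 217 and 428) and the start peak of the same genes a median of 330.5 tags. The median ratio of far-end to start peak was 0.892 (95% interval 0.774 to 1.05), and the far-end peak held more tags in 103 of the 228. Per kilobase of peak, the far-end peaks had a median of 149 tags and the start peaks 157. Of these far-end peaks 79.8% had a fold enrichment over the input of 30 or more, a value that the authors' peak caller gives for each peak, and 79.2% of the start peaks of all 351 genes did.

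**Figure D1:**
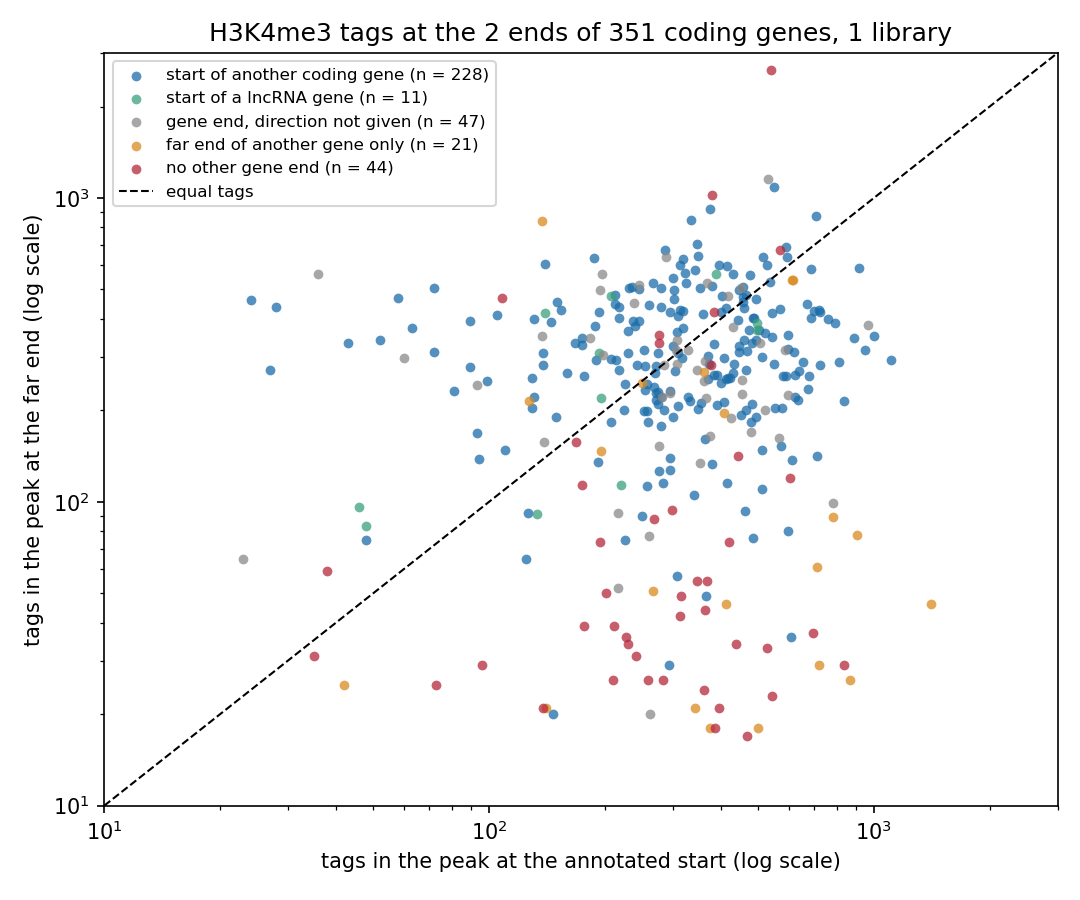
Tags in the start peak (x axis, labelled as the annotated start, log scale) against tags in the far-end peak (y axis, log scale) for the 351 genes with a known start. Each point is a gene, coloured by what the annotation has within 1 kb of the far-end peak. Points at another coding start (blue) spread around the line of equal tags, with a median ratio of 0.892, and points with no other gene end (red) lie mostly below it, with a median ratio of 0.18.

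The neighbours mostly lay downstream on the same strand. In 197 of the 228 genes (86.4%, 95% interval 81.3 to 90.6) every coding start at the far-end peak was on the member's own strand. In 23 it was on the opposite strand, and in 8 there were starts on both. The same order was common without regard to a far-end peak. Of 168 genes with a start peak and a coding start within 1 kb of the far end, 156 had the nearest on the same strand. The start of the neighbour nearest to the summit lay inside the far-end peak in 223 of 228 genes. The summit lay a median of 220 bp past that start in the direction of the neighbour's transcription (quartiles 121 and 317 bp). Start peaks of the members had their summit a median of 263 bp past the member's outer end, which can differ from its annotated start. These distances are thus measured from unlike points. In 61.0% of the 228 genes the far-end peak did not overlap the member at all and reached only into the window beyond its end.

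A long non-coding RNA (lncRNA) start, and no coding start, lay at the far-end peak of 11 genes, which is 3.13%. Their far-end peaks had a median of 308 tags, and 7 of the 11 held more tags than the start peak. Pip4k2c, which encodes a phosphoinositide kinase, had 388 tags at its start and 564 at its far end, at the start of F420014N23Rik. This peak also lay within 1 kb of an end of the coding gene Dtx3, whose direction was not given. Prss12, which encodes the neuronal protease neurotrypsin, had 208 and 475 tags, the latter at Snhg8, a host gene of small nucleolar RNAs.

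Ehd2, which encodes an ATPase of caveolae, had 140 tags at its start and 417 at its far end, at the start of the lncRNA gene Gm24576 and near an end of the coding gene Nop53. Since the direction of Nop53 was not given, this far-end peak cannot be given to the lncRNA gene alone.

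At 47 far-end peaks (13.4%) there was an end of another gene whose start was not given, a coding gene in 42 of them. Their values were close to those at coding starts, with a median of 282 tags, a median ratio of 0.797 and the summit beyond the member's end in 43 of 47. An example is Lsr, which encodes a receptor of tricellular junctions and lipoproteins, with 36 tags at its start and 563 at its far end, near an end of Usf2, a transcription factor gene.

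At 21 far-end peaks (5.98%) the far end of another gene, and no start of another gene, lay within 1 kb. In 2 of the 21, Cd63 and Mien1, an annotated start of the gene itself lay there, so their start and far-end labels may be reversed. Cd63, a tetraspanin gene, had the strongest peak of this kind, with 137 tags in its start peak and 839 at its far end. Over all 21 these peaks were weaker, with a median of 61 tags, a median ratio of 0.149 (95% interval 0.0612 to 0.754) and 13 of 21 under 100 tags. Bad, which encodes a pro-apoptotic member of the BCL2 family, was among the strongest of them, with 614 tags at its start and 538 at the shared far end with Plcb3, a phospholipase C gene, which had 617 tags at its own start. The Bad and Plcb3 peak had its summit 686 bp inside Bad.

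At 44 far-end peaks (12.5%, 95% interval 9.26 to 16.5) neither an end nor an annotated start of another gene lay within 1 kb. Their median was 43 tags (quartiles 29 and 115.5) over a median length of 943 bp, and 32 of the 44 held under 100 tags. Other genes were searched for from 1 kb before each peak to 1 kb after it, so shorter peaks had a shorter search span. How far this bears on the low tag counts of the 44 peaks was not tested. The median ratio to the start peak was 0.18 (95% interval 0.148 to 0.321), and 7 of the 44 reached a fold enrichment of 30. The nearest end of another gene lay a median of 5995.5 bp from the peak, and 3 of the 44 peaks lay inside another gene. Their start peaks had a median of 305.5 tags, beside 325 over all 351 genes.

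The strongest far-end peaks without a neighbour lay mostly inside the gene. At Nr2f2, which encodes the nuclear receptor COUP-TFII, a peak of 21.4 kb with 2642 tags followed the start peak of 540 tags after a gap of 828 bp, and its summit lay 6881 bp inside the far end. Nr2f2 was the only member lost when peaks 1 kb or less apart were joined. Sgk1, a kinase gene induced by serum and glucocorticoids, had 380 tags in its start peak. Its far-end peak held 1021 tags over 7.24 kb, with the summit 4878 bp inside the gene. At Tsc22d1, which encodes a leucine zipper protein, the start had 571 tags and the far-end peak 674.

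In Sgk1, Tsc22d1, H2bc6 and Zfp580 an annotated start of the gene itself lay within 1 kb of the far-end peak. This makes 4 of the 44 genes and 6 of all 351 members. The annotation gave 17492 promoters for 17492 coding genes, so this may be the only start given for them. Their start and far-end labels may then be reversed. H2bc6, a replication-dependent histone gene whose annotation reaches over 37.5 kb, had 384 tags in its start peak and 421 at its far end. Zfp580, a zinc finger gene, had 276 and 332 tags.

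In the remaining named genes no start of the gene itself was annotated at the far end. Cdkn2a, which encodes the cell cycle inhibitors p16 and ARF, had 108 tags in its start peak and 3 further peaks inside the gene. Its far-end peak held 469 tags, with the summit 186 bp beyond the end. Frmd8, an adaptor gene of iRhom proteins, had 276 tags at its start and 355 at its far end, 1.30 kb from an end of the lncRNA gene Neat1. Fbxw2, an F-box gene, had 378 and 281 tags, the far-end peak lying 1.54 kb from an end of Rabepk. Prrt4, a gene for a proline-rich transmembrane protein, had 168 and 157 tags. For Zfp94, a zinc finger gene with 218 tags at its start and 439 at its far end, no other gene end lay near but a coding start inside Zfp61 did.

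**Figure D2:**
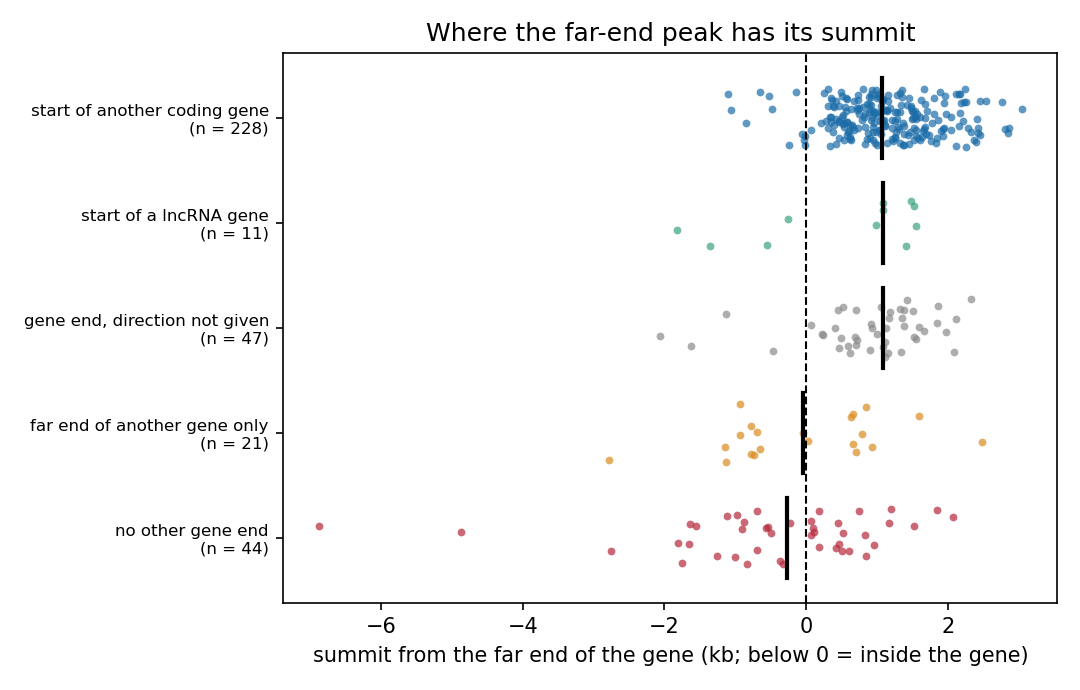
Distance of the far-end summit from the gene's far end (x axis, kb, below 0 inside the gene) for the 5 kinds of surroundings; each point is a gene and the black bar is the median. At another coding start 94.7% of summits lie beyond the end, with a median of 1078.5 bp, against 21 of 44 where no other gene end is near.

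The rule was set at 1 kb from the gene end, and how often a far-end peak was called followed the distance to the next coding start. Of the 10548 genes of this length with a known start, 7026 had a start peak. That peak was placed by the outer gene end, not by the annotated start itself. Among these 7026 genes, 352, or 5.01%, also had a peak at the far end (Six3 with its single peak included). The share was 66.3% (57 of 86) where the nearest start of another coding gene lay under 0.5 kb from the far end and 65.9% (54 of 82) from 0.5 to 1 kb. It was 51.2% (103 of 201) from 1 to 2 kb, 9.22% (19 of 206) from 2 to 3 kb, 3.37% from 3 to 5 kb and 1.73% (92 of 5320) at 10 kb or more. The last group includes genes whose neighbour has no start in the table. Within 1 kb, 104 of 156 far ends were marked where the neighbour's start was on the same strand and 7 of 12 where it was on the opposite strand.

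**Figure D3:**
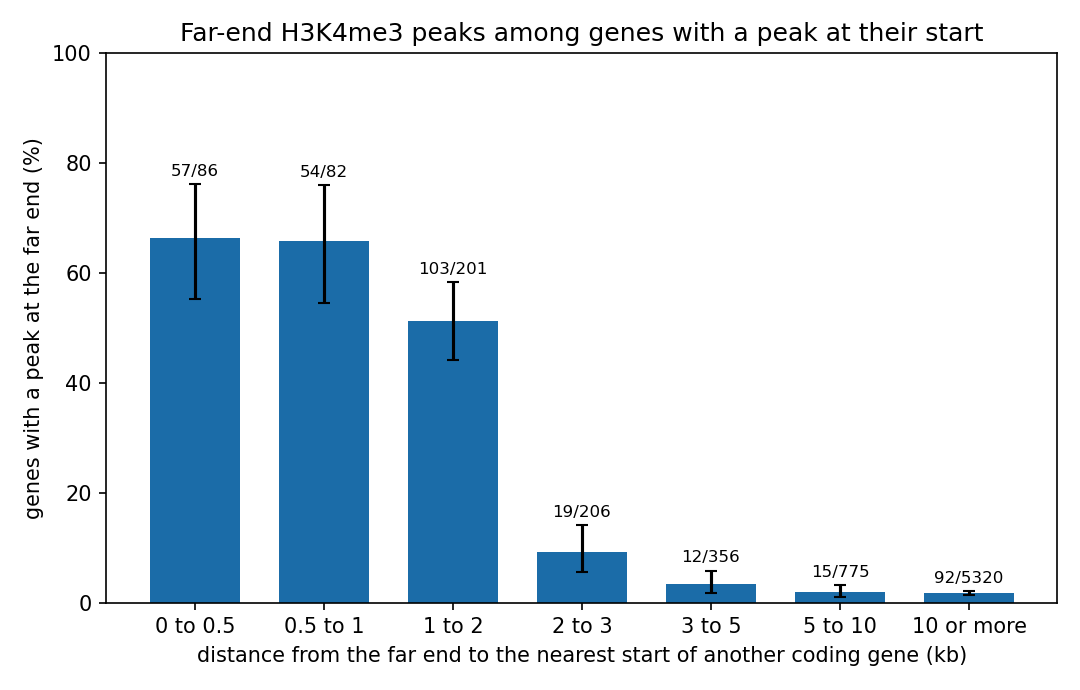
Share of genes with a called peak at the far end (y axis, %) by the distance from that end to the nearest annotated start of another coding gene (x axis, kb), among 7026 genes with a start peak. Bars are shares, error bars exact 95% binomial intervals over genes, and the counts stand above. The share falls from 66.3% in the nearest group to 1.73% in the farthest.

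Genes without a start peak showed a like split. Of these, 30 of 61 (49.2%, 95% interval 36.1 to 62.3) had a far-end peak where a coding start lay within 1 kb of the far end, and 66 of 3109 (2.12%) where no other gene end did. Among genes with a peak at their start the values were 111 of 168 (66.1%, 95% interval 58.4 to 73.2) and 144 of 5751 (2.50%).

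The start peaks of the 351 genes were like those of the 6674 genes with a start peak only. The medians were 325 tags and 350.5 tags, 2118 bp and 2231 bp in length, and a fold enrichment of 39.8 in both. The genes differed in length, with a median of 23.5 kb (95% interval 21.3 to 26.1) against 35.6 kb (34.7 to 36.8). In 294 of the 351 genes (83.8%) no further peak was called between the 2 windows. The most was 7, in Camta1, a transcription factor gene of 802 kb and the longest member, with 588 tags at its start and 316 at its far end, near an end of Vamp3, a SNARE gene.

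The other longest members had far-end peaks at neighbours too. Dock3, a guanine nucleotide exchange factor gene of 339.5 kb, had 238 tags at its start and 452 at its far end, near an end of Manf, a gene of the endoplasmic reticulum stress response. Col23a1, a collagen gene of 294 kb, had 177 tags at its start and 260 at its far end, at the start of Phykpl. Thada, of 276 kb, had 285 and 282 tags, the latter near an end of Zfp36l2, an mRNA decay factor gene. Ppfia2, a liprin gene of 464 kb, had 216 tags and a far-end peak of 52, near an end of Acss3.

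At the lower bound of length, the members were Gtf3c6 (10.01 kb), with 432 tags at its start and 285 at its far end, Bad (10.05 kb), and Jph4 (10.11 kb), with 192 and 135 tags. Just outside the bound lay Ssrp1 (9.995 kb), a histone chaperone gene with 438 tags at its start and 307 at its far end. Mmp19 (9.918 kb), whose direction was not given, had 47 and 1332 tags at its lower and upper end, and Mafg (9.839 kb) had 546 at its start and 279 at its far end.

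The far-end peak held more tags than the start peak in 139 of the 351 genes (39.6%, 95% interval 34.4 to 44.9). The largest ratios came from genes with a weak start peak beside a strongly marked neighbour. Kcnh6, a potassium channel gene, had 24 tags at its start and 460 at its far end, at the start of Dcaf7, a ratio of 19.2. Lrrc23, a gene of sperm flagella, had 28 and 437 tags, the latter at Eno2, the neuronal enolase gene, a ratio of 15.6. Aldh3b1, an aldehyde dehydrogenase gene, had 27 and 271 tags, the latter at Ndufs8, which encodes a subunit of respiratory complex I. Sypl2, a synaptophysin-like gene, had 58 and 469 tags, the latter at Atxn7l2.

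Some members shared a peak. The 702 ends of the 351 genes held 680 different peaks. In 18 genes the far-end peak was also the far-end peak of another member, 9 peaks in all, and in 12 genes it was the start peak of another member. Erbb2, a receptor tyrosine kinase of the EGF receptor family, had 332 tags at its start. It shared a far-end peak of 214 tags with its neighbour Mien1, which had an annotated start at that peak.

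Genes of the signalling that EGF and FGF engage were followed as a list of 28, of which 21 were autosomal and over 10 kb. All 21 had a peak at an end, beside 66.9% of all genes of this length. Separate peaks at both ends were found in 3 of the 21, Erbb2, Shc1 and Sos2. That share was 3.16% over all genes of this length and 4.72% over the 8918 with a peak at an end. Shc1, an adaptor of receptor tyrosine kinases, had 1000 tags over 6.80 kb at its start and 352 at its far end, at Pygo2, a Wnt pathway gene. Sos2, an exchange factor for Ras, had 597 and 319 tags, the latter at Vcpkmt.

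The list of H3K4 methylation and Polycomb enzymes had 2 genes with peaks at both ends among 19, beside 3.16% of all genes of this length. A peak at an end was found at 17 of the 19, beside 66.9% of all. Kmt2d, an H3K4 methyltransferase gene, had 888 tags over 4.23 kb at its start and 347 at its far end, at Prkag1, which encodes a subunit of AMP-activated kinase. Setd1a, another H3K4 methyltransferase gene, had 608 tags at its start and 36 at its far end, at Hsd3b7, a gene of bile acid synthesis.

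The neuronal list had 2 genes with peaks at both ends among 14, beside the same 3.16%. A peak at an end was found at 8 of the 14, beside the same 66.9%. Tubb3, the neuronal beta-tubulin gene, had 73 tags at its start and 25 at its far end, where no other gene end lay within 1 kb. Grin1, a subunit of NMDA receptors, had 48 tags at its start and 83 at its far end, at the start of the lncRNA gene Grin1os. All 4 of these peaks held fewer than 100 tags.

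No member with separate peaks at both ends was found among 11 neural stem and progenitor genes, 12 cell cycle genes, 9 astrocyte genes, 10 oligodendrocyte lineage genes, 9 microglia and macrophage genes and 12 endothelial and mural genes of this length. With 3.16% of all genes as the background and lists this short, these counts say little about the lists. Cdkn2a, Ncapd2 and Kif22, described above, are members that the cell cycle list does not hold. A peak at either end was found at 7 of the 11 progenitor genes, all 12 cell cycle genes, 5 of the 9 astrocyte genes, 5 of the 10 oligodendrocyte lineage genes, 3 of the 9 microglia and macrophage genes and 2 of the 12 endothelial and mural genes, beside 66.9% of all genes of this length.

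The share of genes with peaks at both ends was highest on chromosome 19 (5.69%, 95% interval 3.72 to 8.29, 25 of 439) and on chromosome 11 (5.23%, 50 of 956), and lowest on chromosome 1 (1.08%, 95% interval 0.519 to 1.98, 10 of 926). The share of genes with a known start that had a coding start within 1 kb of the far end was 2.74% on chromosome 19, 3.00% on chromosome 11 and 1.74% on chromosome 1. On the autosomes with a value it ranged from 0.436% on chromosome 13, where 1.72% of genes had peaks at both ends, to 3.34% on chromosome 7, where 4.76% did, and the 2 shares did not put the chromosomes in the same order.

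The promoters of the members, and of the coding genes starting at their far-end peaks, were CpG-rich. No value is given for the other far-end peaks. The ratio of observed to expected CpG in the 300 bases around the start had a median of 0.785 (95% interval 0.763 to 0.813) in the 351 members and 0.786 (0.736 to 0.821) in the 224 different coding genes that start nearest to the far-end summits. It was 0.798 in genes with a start peak only, 0.577 over all 17492 coding promoters and 0.281 in 3402 long genes with no peak at either end. GGGCGG was found in 68.9% of members' promoters, in 69.6% of the neighbours' and in 46.3% of all. The share was also 69.8% in genes with a start peak only and 68.3% in all marked coding genes.

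CCGGAAG, the core bound by ETS factors, was found in 64 of 351 members' promoters (18.2%, 95% interval 14.3 to 22.7) and in 77 of 224 neighbours' (34.4%, 28.2 to 41.0), against 11.9% of all coding promoters and 18.8% of 9332 promoters of autosomal coding genes with a peak at the start. The neighbours were shorter genes, with a median of 9.30 kb and 52.2% of 10 kb or less, against 23.8 kb and 24.7% of the marked genes. Among those of 10 kb or less the motif was in 30.8% of 117 neighbours (95% interval 22.6 to 39.97) and in 21.2% of 2306 marked genes. The NRF1-type motif was in 11.1% of members' and 12.5% of neighbours' promoters beside 6.66% of all, and TGACGTCA in 3.42% and 2.68% beside 2.33%. Among all marked coding genes the shares were 11.3% and 3.59%, and among genes with a start peak only 11.4% and 3.36%. Matches of different motifs may overlap, and each was counted for its own motif.

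**Figure D4:**
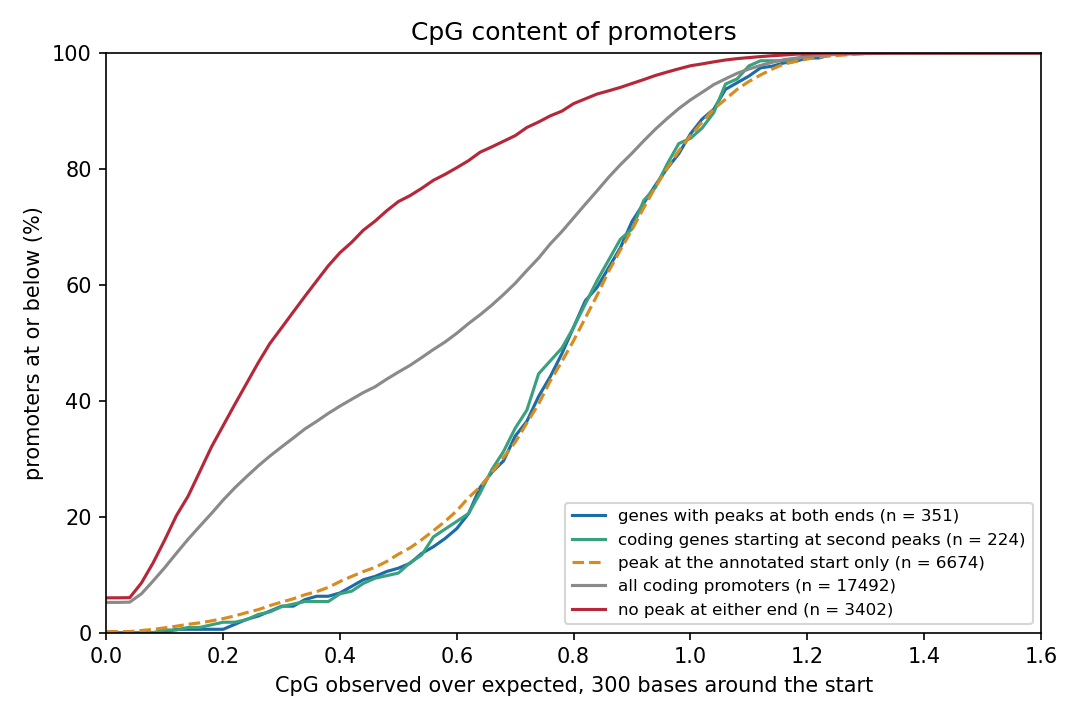
Cumulative share of promoters (y axis, %) by the ratio of observed to expected CpG in the 300 bases around the start (x axis); each line is a group of genes with its number in the legend. The lines of the members, of the coding genes starting at their far-end peaks and of genes with a peak at the start only run together with medians of 0.785, 0.786 and 0.798, to the right of genes with no peak at either end (0.281).

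For the 70 members whose start was not given, 9 of them on chromosome 18, the peak with more tags and the peak with fewer tags were compared instead. They had medians of 423 and 211 tags. Another gene end lay within 1 kb of the peak with fewer tags in 45 of the 70 genes (64.3%, 95% interval 51.9 to 75.4). The peak with fewer tags need not be at the far end, so this share is not comparable with the 87.2% found for far-end peaks (306 of 351, 95% interval 83.2 to 90.5).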

How the data were processed

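H3K4me3 and input chromatin of mouse neural progenitor cells were each sequenced in 1 library, as DNA nanoballs per the labels' protocols. The genome was mm10 per the submitters' processing notes, and no aligner is named. Per the file headers, the authors called peaks with MACS 1.4.2 against the input (p cutoff 1e-05, 1 tag kept per position); MACS2 2.1.0 is the version in the submitters' processing notes. The deposited list holds, for each peak, raw tag counts, positions and lengths in base pairs, a score (the -log10 p-value multiplied by 10), a fold ratio over the input and a false discovery rate in percent. Keeping 1 tag per position limits counts in dense peaks, and weaker sites are not listed. Tags amplified by PCR carry no molecular identifiers.

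Gene ends came from RefSeq genes of GRCm38.p6, and starts and strands from RefSeq promoters of the same build, which cover 17492 of 21887 coding genes, and lncRNA genes, but no other kinds. An overlap of 1 bp counted, and of several peaks in a window the one with most tags was taken. Intervals were computed with scipy 1.17.1, and the procedure was tested on simulated peaks. Members, lists and the rule for named genes (most tags at the far end by kind of surroundings, highest ratio, longest, shortest and listed genes) were chosen with earlier results of these data known. The splits by distance and by length of the neighbour were chosen after values were seen. Alternatives covered windows, thresholds, summits, gene length, joined peaks, the choice of the far-end peak, and the distance and kind of the other gene. Some items that the rule for named genes selects are not reported here.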

Additional observations from a re-analysis of the deposited data

Results flagged for a closer look

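Separate peaks at both ends were also found outside the autosomes, which the rule leaves out. On the X chromosome 7 of 567 coding genes over 10 kb had them (1.23%, exact 95% interval 0.498 to 2.53), and on Y none of 72 did (interval up to 4.99%). Uxt had 173 and 159 tags with its weaker peak at Elk1, and Pgk1, a glycolytic enzyme gene, had 541 and 106 tags with no other gene end near the weaker peak.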

How the results depend on the processing

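The 421 genes were 3.16% of those tested. The share was 2.27% (302 genes) with windows of 500 bp and 6.25% (833 genes) with windows of 2500 bp, 2.79% with a fold enrichment of at least 10, 1.37% (182 genes) with the summit in the window, and 3.65% and 2.63% for genes over 5 kb and over 20 kb. The share of far-end peaks with another gene end within 1 kb (87.2%) was 90.7% with a -log10 p of at least 10, 91.4% with a fold enrichment of at least 10, 82.4% with the summit in the window, and 90.6% with ends within 2500 bp. The share with another gene's start (68.1%) was 73.6% and 62.8% under the fold and summit settings. With the summit in the window, the median tag ratio (0.783) was 0.615 and the median length ratio (0.894) was 0.721. Taking the peak with fewer tags in place of the far-end peak also brings in the 70 genes with no known start. Over those 421 genes the 4 values were 64.8%, 43.7%, 0.552 and 0.692, and over the same 351 genes as the main values, an alternative added after seeing the data, they were 64.96%, 46.2%, 0.534 and 0.692. The lower tag ratio there follows from the construction; otherwise the cause was not tested. The other 32 of 54 values stayed inside the main value's interval. No paired analysis was possible because there is 1 library of each kind, so no library could be left out. Tag counts as low as 17 at a far end, and a called peak in 1 library only, limit what the weak far-end peaks show.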
